A study of Mus musculus with 9 samples.

Results

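A set of 10 genes, listed here by the step they serve, carries fatty acids into a liver cell, holds them in the cytosol and turns them into acyl-CoA. They are Cd36, Slc27a1, Slc27a2 and Slc27a4 for uptake, Fabp1 and Fabp2 for binding, and Acsl1, Acsl3, Acsl4 and Acsl5 for activation. They were chosen by gene symbol, with earlier results of these data known, and all 10 were found among the 18148 symbols of the deposited expression table. Liver RNA came from C57BL/6J mice in 3 groups of 3 libraries, all gavaged for 8 weeks. Control mice were given distilled water. DEHP mice were given di(2-ethylhexyl) phthalate, a plasticizer, at 1500 mg/kg per day in corn oil, and Treatment mice that same dose in corn oil together with 70 mg/kg of green tea polyphenols (GTP). Control mice had no corn oil, so the effects of the phthalate and of its vehicle cannot be told apart, and the polyphenols were measured only on top of the phthalate (groups given corn oil or GTP alone are not analysed here). The sources used here give no age or sex. Whether each library is from its own animal is not in the labels, so p-values reflect the spread among these samples, which may be technical.

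Long-chain fatty acids enter hepatocytes with the help of membrane proteins, among them the scavenger receptor CD36 and the fatty acid transport proteins (FATP) of the SLC27 family. Inside the cell, fatty acid binding proteins (FABP) keep them soluble, and long-chain acyl-CoA synthetases (ACSL) join them to coenzyme A, the step that commits them to oxidation or to lipid synthesis. Several of these genes are textbook targets of PPARA, the nuclear receptor that senses fatty acids and that phthalates and fibrates activate in rodent liver.

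Values are the authors' own signal, whose unit no source used here names. Decimal values with near-equal library totals look like an FPKM or TPM scale, which divides by transcript length, and levels of different genes are set side by side here on that reading. No read depth is known. Library totals ran from 789076 to 863300, and Treatment libraries had the lowest. The major urinary protein (Mup) genes took up 18.8% ± 2.37 of all signal in Control, 5.49% ± 3.06 in DEHP and 8.41% ± 2.78 in Treatment libraries (SD, n = 3), so values of other genes shift with this share. Hepatocyte markers were high in all 9 libraries, with Alb between 38289.07 and 55554.84. Their summed value was lower in every DEHP library (70918.3 to 74182.67) and every Treatment library (70406.94 to 80996.63) than in every Control library (86328.47 to 91019.03). In the test described below 2 of 7, Alb and Serpina1a, fell in DEHP against Control, beside 3.91% of all genes. Serpina1a is a gene with near-identical copies, so its value is uncertain. The part of this lower hepatocyte signal in the results was not tested. Control replicates 1 and 2 held fat tissue transcripts: Adipoq, which encodes adiponectin of fat cells, had values of 33.69 and 61.04 in them and of 0 in all other libraries.

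All 10 genes were higher in every DEHP library than in every Control library, and 9 of them rose in the test across all genes. Genes were tested as log2(value + 1) with limma, adjusted by the Benjamini-Hochberg method over 10388 genes and called at an adjusted p below 0.05. In DEHP against Control 25.5% of all genes tested were called, 21.6% higher and 3.91% lower, while 33.8% were higher without overlap between the groups and 69.9% had a log2 fold change above 0. The median log2 fold change was 0.68 over the 10 genes and 0.12 over all genes. After rescaling the libraries without the Mup genes these medians were 0.48 and -0.06. With Treatment against Control 4 of the 10 were called higher, against 9.68% of all genes higher and 0.760% lower, and the median was 0.47 beside 0.11. There 7 of the 10 were higher without overlap, against 31.8% of all genes, and all 10 log2 fold changes were above 0, as were 74.6% of all. With Treatment against DEHP 0 of the 10 were called (0% of all genes), and all 10 log2 fold changes lay below 0, as did 53.3% of all genes.

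On that scale, read as per transcript length, the order of the group means was Fabp1, Slc27a2, Acsl1, Acsl5, Fabp2 and Cd36 in all 3 groups, followed by Acsl4, Slc27a1, Slc27a4 and Acsl3 in an order that changed between groups. In Control the 4 lowest had means between 5.40 and 9.46, close together beside the SD of 4.97 for Slc27a1. In DEHP the Cd36 mean of 86.8 ± 28.6 and the Fabp2 mean of 104.7 ± 7.49 were within their spread (SD, n = 3). The ranges of Acsl1 (294.2 ± 24.8) and Acsl5 (236.9 ± 43.3) overlapped between DEHP libraries, as they did in Treatment (235.6 ± 26.7 and 182.3 ± 43.2). Within every library Acsl1 lay above Acsl5, with a ratio of Acsl5 to Acsl1 of at most 0.897.

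**Figure D1:**
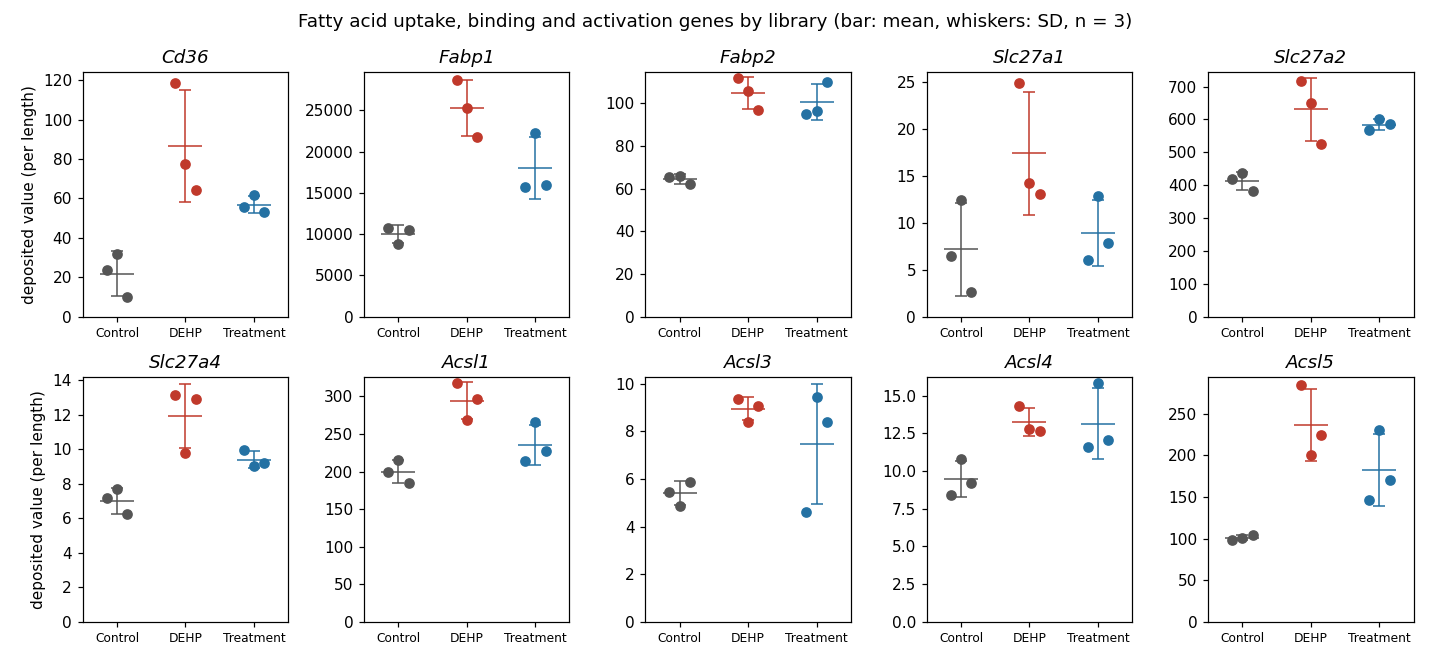
Deposited value of each gene (vertical axes, each from 0) in the 9 libraries, by group; points are libraries, the bar is the mean and whiskers are SD (n = 3). All DEHP points lie above all Control points in each of the 10 panels, while Treatment points overlap the Control range for Slc27a1, Acsl1 and Acsl3.

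Fabp1 encodes the liver fatty acid binding protein, one of the most abundant proteins of hepatocyte cytosol. Its value was 10764.58, 8745.79 and 10449.1 in the Control libraries. In the DEHP libraries it was 28650.18, 25330.23 and 21832.4, and in the Treatment libraries 15744.79, 22317.85 and 15965.52. The 3 groups were separate except that the highest Treatment library lay above the lowest DEHP library. Fabp1 took 1.18% ± 0.0964 of the library total in Control and 3.00% ± 0.494 in DEHP (SD, n = 3), and its mean moved from rank 17 among tested genes to rank 5. It rose by 1.34 on the log2 scale in DEHP against Control (SE 0.16, limma adjusted p = 0.000523) and by 0.84 in Treatment against Control (SE 0.16, adjusted p = 0.0135). The second call was lost after median centring, at 0.72 (adjusted p = 0.0563). For Treatment against DEHP the value was -0.50 (SE 0.16), which did not pass (adjusted p = 0.188). The rise under DEHP was called in all 16 other settings tried, from 1.12 to 1.81.

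Fabp2, the binding protein best known from intestinal epithelium, was measured far below Fabp1 per transcript length. It was at 65.45, 66.11 and 62.01 in Control, at 111.61, 105.76 and 96.75 in DEHP, and at 94.92, 96.15 and 110.18 in Treatment libraries. DEHP and Treatment libraries covered much the same range, and both lay clear of Control. The log2 fold change was 0.69 in DEHP against Control (SE 0.08, limma adjusted p = 0.000624) and 0.63 in Treatment against Control (SE 0.08, adjusted p = 0.00425). Treatment against DEHP was at -0.06 (SE 0.08), with an adjusted p of 0.788 in limma. Of 8 listed markers of intestinal epithelium, 3 were in the table, Vil1, Lct and Muc2, and their summed value was at most 0.12 in any library. The rest could not be looked at. Vil1, the enterocyte villin, was at 0.11 or less where Fabp2 was between 62.01 and 111.61. The part of intestinal cells in the Fabp2 values was not tested. The ratio of Fabp1 to Fabp2 was 155 ± 20.1 in Control, 241 ± 15.5 in DEHP and 181 ± 45.4 in Treatment libraries (SD, n = 3). In DEHP it lay between 226 and 257, above every Control library, while Treatment libraries ran from 145 to 232.

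Promoter windows of the 10 genes are shown as a description of their letters. PPARA, as a partner of RXR, is known to bind a pair of half-sites in the same direction, 1 base apart (DR1). RefSeq promoters of GRCm38.p6 held 13 windows for all 10 genes, each from 250 bases before to 50 after an annotated start, among 32851 windows for all genes. Searched on both strands, the exact pair (AGGTCA, any base, AGGTCA) was in 0 of the 13 windows and in 0.0396% of all windows. A relaxed form (AGGNCA, any base, AGGNCA) was in 1 of the 13 and in 0.381% of all. That window belonged to Fabp1, the most abundant of the 10. The single half-site AGGTCA, which can also lie inside the pair, was in 3 windows, those of Cd36, Fabp1 and Slc27a2, and in 16.3% of all. The bases before the start follow, 5′ to 3′ on the gene's strand, for those 3 genes and for Acsl5, which rose strongly and whose window held none of these letters. Capitals mark the half-sites and the relaxed pair, all of which lie on the opposite strand, so that a half-site reads TGACCT here.
Fabp1: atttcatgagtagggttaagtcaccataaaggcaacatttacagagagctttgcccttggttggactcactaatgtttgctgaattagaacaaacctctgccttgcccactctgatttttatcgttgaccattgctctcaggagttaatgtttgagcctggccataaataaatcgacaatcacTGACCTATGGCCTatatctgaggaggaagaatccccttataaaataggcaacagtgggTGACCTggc
Cd36: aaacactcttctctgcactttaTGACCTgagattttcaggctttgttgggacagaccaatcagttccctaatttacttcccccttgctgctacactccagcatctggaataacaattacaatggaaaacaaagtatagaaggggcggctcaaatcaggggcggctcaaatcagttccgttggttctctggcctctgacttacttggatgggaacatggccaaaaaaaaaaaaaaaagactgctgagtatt
Slc27a2: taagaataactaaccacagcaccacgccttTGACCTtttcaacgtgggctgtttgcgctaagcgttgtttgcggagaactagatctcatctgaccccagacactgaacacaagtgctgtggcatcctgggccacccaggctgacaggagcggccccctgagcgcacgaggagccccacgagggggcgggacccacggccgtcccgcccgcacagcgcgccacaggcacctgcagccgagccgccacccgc
Acsl5: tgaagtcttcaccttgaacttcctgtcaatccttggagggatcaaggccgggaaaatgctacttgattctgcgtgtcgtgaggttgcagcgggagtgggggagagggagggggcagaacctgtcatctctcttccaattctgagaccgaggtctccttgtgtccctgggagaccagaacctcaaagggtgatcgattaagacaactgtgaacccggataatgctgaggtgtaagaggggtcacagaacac
In GRCm38.p6 these are chr6:71199629-71199878 (plus strand), chr5:17835897-17836146 (minus strand), chr2:126552774-126553023 (plus strand) and chr19:55253119-55253368 (plus strand). The relaxed pair in Fabp1 covered positions -67 to -55 from the start and contained one of the gene's half-sites, and the other half-site lay at -9 to -4. The half-site of Cd36 began at -228 and that of Slc27a2 at -220. Fabp1 alone among the 13 windows had a TATA box (TATAAA, 13.6% of all windows), at -30 to -25. GC boxes (GGGCGG) were in 8 of the 13 windows and in 35.7% of all, CCAAT boxes (CCAAT) in 7 and in 37.4%, and the cyclic AMP element TGACGTCA in 0 and in 1.79%. A match is a description of these letters, and binding was not measured. Sites outside these windows were not searched, and the part of PPARA in the rises was not tested.

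Cd36, the fatty acid translocase, had the largest log2 fold change of the 10 in both comparisons with Control, except that after quantile normalization Fabp1 was at 1.54 and Cd36 at 1.33 in Treatment against Control. It was at 23.75, 31.98 and 9.72 in Control, at 118.89, 77.32 and 64.18 in DEHP, and at 55.68, 61.58 and 53.22 in Treatment libraries. The 3 groups did not overlap, and the Control libraries differed among themselves by a ratio of 3.29 between highest and lowest. Cd36 rose by 2.04 in DEHP against Control (SE 0.41, limma adjusted p = 0.0109), a change above that of 99.6% of all genes. Treatment against Control was at 1.49 (SE 0.41, adjusted p = 0.0621) and Treatment against DEHP at -0.56 (SE 0.41, adjusted p = 0.583), and neither passed. Without Control replicate 2, Treatment against Control was at 1.83 and was called (adjusted p = 0.0476), as it was without trend and robust estimates in limma (adjusted p = 0.0401). In the remaining 14 of 16 other settings it was not called, with adjusted p up to 0.185. Without Control replicate 3 it was at 1.01 (adjusted p = 0.069), and DEHP against Control was at 1.57 and still called (adjusted p = 0.00648).

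The FATP genes differed in level and in steadiness. Slc27a2 is the very long-chain acyl-CoA synthetase and transporter FATP2 of liver. Its share of the summed value of the 3 FATP genes of this set was 96.7% ± 1.05 in Control, 95.6% ± 0.737 in DEHP and 97.0% ± 0.436 in Treatment libraries (SD, n = 3). That sum leaves out Slc27a5, another FATP gene of liver, with means of 324.2 in Control, 398 in DEHP and 416.9 in Treatment libraries. The value of Slc27a2 was 417.76, 437.12 and 381.33 in Control, 716.13, 650.61 and 526.58 in DEHP, and 566.59, 600.86 and 585.65 in Treatment libraries. Both groups given the phthalate lay above all Control libraries and overlapped each other. Slc27a2 rose by 0.60 in DEHP against Control (SE 0.11, limma adjusted p = 0.00364) and by 0.50 in Treatment against Control (SE 0.11, adjusted p = 0.0232). The first call was lost after quantile normalization, at 0.29 (adjusted p = 0.131), and narrowly with Control replicate 3 alone, at 0.71 (adjusted p = 0.0501). The second was lost in 8 of 16 other settings, among them quantile normalization (0.28, adjusted p = 0.234), median centring (0.39, 0.0908) and rescaling without the Mup genes (0.42, 0.0697). It was also lost without any one of Treatment replicates 2 and 3 and Control replicates 1 and 3, with adjusted p between 0.0646 and 0.0885 and log2 fold changes between 0.45 and 0.52.

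Slc27a4 encodes FATP4, a transporter with acyl-CoA synthetase activity. It was at 7.15, 7.71 and 6.22 in Control, 13.12, 9.77 and 12.9 in DEHP, and 9.97, 9.03 and 9.2 in Treatment libraries. Every library of either phthalate group was above every Control library. It rose by 0.68 in DEHP against Control (SE 0.12, limma adjusted p = 0.00261), a call that all 16 other settings kept. Treatment against Control was at 0.38 (SE 0.12, adjusted p = 0.0641) and Treatment against DEHP at -0.30 (SE 0.12, adjusted p = 0.264). The former was called in 2 of 16 other settings, at equal totals (adjusted p = 0.0334) and with the 6 libraries alone (0.0407).

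Slc27a1 encodes FATP1, the transporter typical of fat and muscle. It was at 6.44, 12.44 and 2.57 in Control, 24.91, 14.19 and 13.07 in DEHP, and 6.03, 12.84 and 7.83 in Treatment libraries. The DEHP libraries lay above the others, by a narrow margin over Control replicate 2 and Treatment replicate 2. It was the one gene of the 10 that did not pass in DEHP against Control, with a log2 fold change of 1.32 (SE 0.51, limma adjusted p = 0.104). Without Control replicate 2 it was called, at 1.78 (SE 0.43, adjusted p = 0.0309), while without Control replicate 3 it was at 0.82 (SE 0.40, adjusted p = 0.214). Treatment against DEHP was at -0.90 (SE 0.51, adjusted p = 0.468), and Treatment against Control was at 0.42 (SE 0.51, adjusted p = 0.626) and at -0.07 without Control replicate 3.

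In the Control group Cd36 and Slc27a1 followed the order of the fat tissue transcripts. Both were highest in replicate 2, next in replicate 1 and lowest in replicate 3, as was the summed value of the 9 adipocyte markers, at 1441.48, 848.34 and 21.41 in that order. Fabp2, Slc27a2, Slc27a4 and Acsl1 had the same order, over a ratio of highest to lowest between 1.07 and 1.24, against 3.29 for Cd36 and 4.84 for Slc27a1. The DEHP libraries ran from 54.14 to 374.24 on that sum and the Treatment libraries from 35.36 to 66.42, and Adipoq, Plin1, Lep and the brown fat gene Ucp1 were listed at 0 in both groups. Of the list, 5 were tested in DEHP against Control. Of these 0 were called higher and 1 lower, the lipase gene Lipe, beside 21.6% and 3.91% of all genes. The fat cell binding protein Fabp4 was at 361.68 in DEHP replicate 1, the library with the highest Cd36 and Slc27a1, where Adipoq was listed at 0. With Control replicate 3 as the lone control, and assumed to vary like the other groups, the log2 fold change of Cd36 was 2.99 (SE 0.30, adjusted p = 0.0137) and that of Slc27a1 2.31 (SE 0.45, adjusted p = 0.0408). Against that library the DEHP mean was 8.93-fold for Cd36 and 6.77-fold for Slc27a1. Of the 10 genes, 7 were called higher in that fit, where 6.52% of all genes were. Those lost were Slc27a2, Acsl3 and Acsl4, while Slc27a1 was gained. In Treatment against Control 0 of the 10 were called there, with 10 of all genes called.

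**Figure D2:**
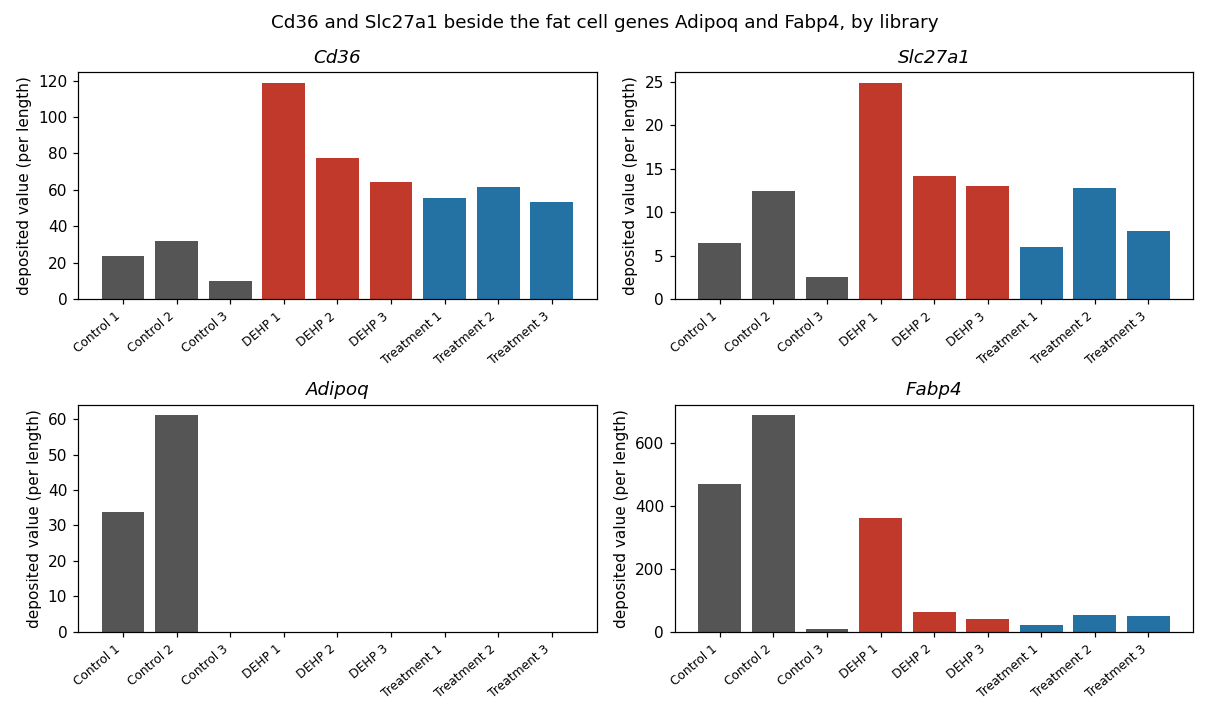
Deposited value of Cd36 and Slc27a1 (upper panels) and of the fat cell genes Adipoq and Fabp4 (lower panels) in each of the 9 libraries; bars start at 0 and colours mark the groups. Adipoq is above 0 in Control replicates 1 and 2 alone, and Cd36 and Slc27a1 are lowest in Control replicate 3.

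Markers of macrophages, which also express Cd36, had summed values between 57.84 and 66.32 in Control, 74.41 and 110.73 in DEHP, and 65.51 and 116.37 in Treatment libraries. Of 8 such markers, 1 was called higher in DEHP against Control (Cd5l, a secreted macrophage protein) and 0 lower, beside 21.6% and 3.91% of all genes. The part of these markers in the result was not tested. Of 9 endothelial markers 0 were called in any comparison. Over all genes 25.5% were called in DEHP against Control, 0% in Treatment against DEHP and 10.4% in Treatment against Control. Endothelial markers summed to between 82.45 and 116.13 in Control, 95.26 and 128.32 in DEHP, and 80.16 and 86.42 in Treatment libraries. All Treatment libraries lay below all DEHP libraries on that sum, as they did for Cd36 and Slc27a1, and its part in those values was not tested. In bulk liver, more cells of a type and more RNA per cell cannot be told apart.

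Among the acyl-CoA synthetases, Acsl1 and Acsl5 made up most of the signal. Acsl1, the main long-chain isoform of liver, was at 199.46, 214.85 and 184.25 in Control, 317.48, 268.18 and 296.92 in DEHP, and 213.57, 265.29 and 227.99 in Treatment libraries. DEHP libraries lay above all others, and Treatment overlapped Control. Acsl1 rose by 0.56 in DEHP against Control (SE 0.10, limma adjusted p = 0.00388), a call lost after quantile normalization at 0.28 (adjusted p = 0.097). Treatment against DEHP was at -0.32 (SE 0.10, adjusted p = 0.2) and Treatment against Control at 0.24 (SE 0.10, adjusted p = 0.164).

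Acsl5, an isoform of mitochondria and endoplasmic reticulum, was at 98.29, 100.83 and 104.35 in Control, 284.86, 200.86 and 224.96 in DEHP, and 146.58, 230.35 and 169.98 in Treatment libraries. Control libraries were nearly alike and lay below all others. It rose by 1.20 in DEHP against Control (SE 0.17, limma adjusted p = 0.00126) and by 0.82 in Treatment against Control (SE 0.17, adjusted p = 0.0205). The second call was lost in 7 of 16 other settings: without Treatment replicate 3 or any one Control library (adjusted p between 0.0528 and 0.0706), after quantile normalization (0.63, adjusted p = 0.0705), with the replicate block (0.0542) and with Control replicate 3 alone (0.184). Treatment against DEHP was at -0.39 (SE 0.17, adjusted p = 0.326).

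The makeup of this pool differed between groups. The summed value of the 4 Acsl genes was 315.5 ± 14.2 in Control, 553 ± 68.4 in DEHP and 439 ± 74.4 in Treatment libraries (SD, n = 3). Acsl1 held between 60.7% and 64.8% of it in Control, between 50.7% and 54.7% in DEHP, and between 50.9% and 56.7% in Treatment libraries. Acsl5 held between 30.4% and 34.4%, between 41.0% and 45.5%, and between 38.9% and 44.2%. Neither share in either phthalate group overlapped Control. The ratio of Acsl5 to Acsl1, which does not depend on how a library was scaled, was 0.509 ± 0.0505 in Control, 0.801 ± 0.0830 in DEHP and 0.767 ± 0.0927 in Treatment libraries (SD, n = 3). Control replicates 1 and 2, which held fat tissue transcripts, had ratios of 0.493 and 0.469, and Control replicate 3 had 0.566. The lowest ratio in the phthalate groups was 0.686. The part of fat tissue in the Control shares was not tested.

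**Figure D3:**
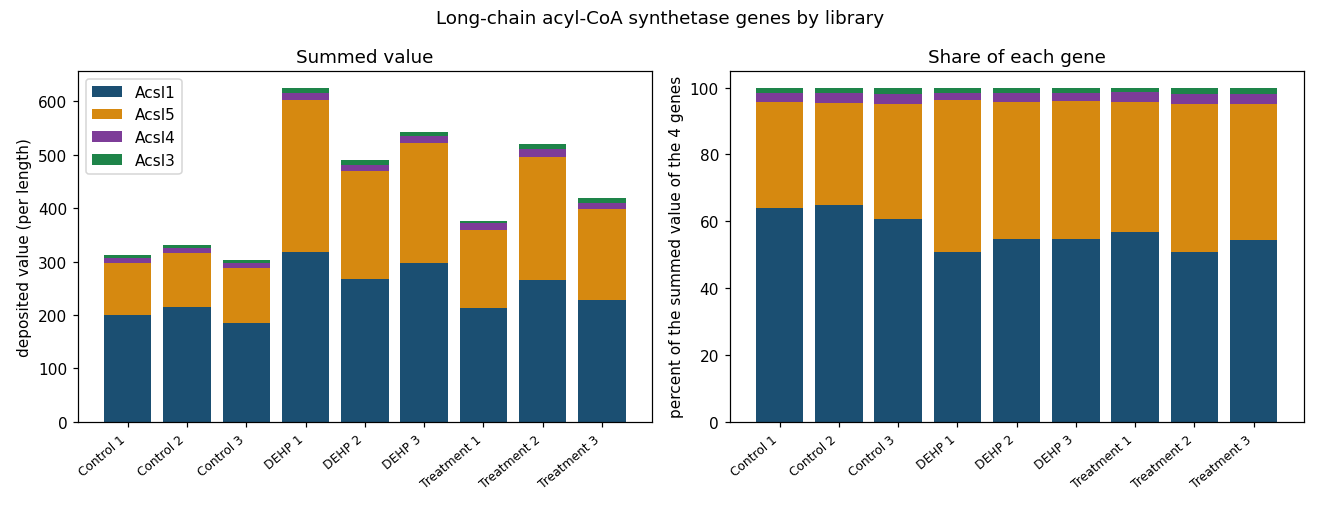
Left, deposited values of the 4 Acsl genes stacked for each library; right, the same as percent of their sum. The Acsl5 part lies between 30.4% and 34.4% in Control libraries and between 38.9% and 45.5% in the other 6.

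Acsl3 and Acsl4 were far lower. Acsl3, an isoform of endoplasmic reticulum and lipid droplets, was at 5.43, 4.88 and 5.88 in Control, 9.34, 8.4 and 9.07 in DEHP, and 4.63, 9.44 and 8.37 in Treatment libraries. Treatment replicate 1 lay below every Control library and the other two near DEHP. Acsl3 rose by 0.64 in DEHP against Control (SE 0.20, limma adjusted p = 0.0409), but the call was lost without any one of the 6 libraries (adjusted p between 0.0727 and 0.108) and in 12 of 16 other settings in all. Treatment against Control was at 0.36 (SE 0.20, adjusted p = 0.26). It was called in 1 of 16 other settings, without Treatment replicate 1, at 0.63 (SE 0.10, adjusted p = 0.00925).

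Acsl4, the isoform that prefers arachidonic acid and is known for its role in ferroptosis, was at 8.41, 10.78 and 9.2 in Control, 14.31, 12.76 and 12.62 in DEHP, and 11.56, 15.84 and 12.02 in Treatment libraries. DEHP and Treatment libraries covered much the same range above Control. It rose by 0.45 in DEHP against Control (SE 0.12, limma adjusted p = 0.0249), the smallest log2 fold change of the 10, and lost the call in 8 of 16 other settings, among them without DEHP replicate 1 or Control replicate 1 or 3 (adjusted p between 0.0735 and 0.097). Treatment against Control was at 0.43 (SE 0.12, adjusted p = 0.054). It was called in 2 of 16 other settings, without Treatment replicate 1, at 0.51 (adjusted p = 0.0416), and at equal library totals, at 0.51 (adjusted p = 0.026). Treatment against DEHP was at -0.28 (SE 0.20, adjusted p = 0.561) for Acsl3 and at -0.02 (SE 0.12, adjusted p = 0.96) for Acsl4.

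**Figure D4:**
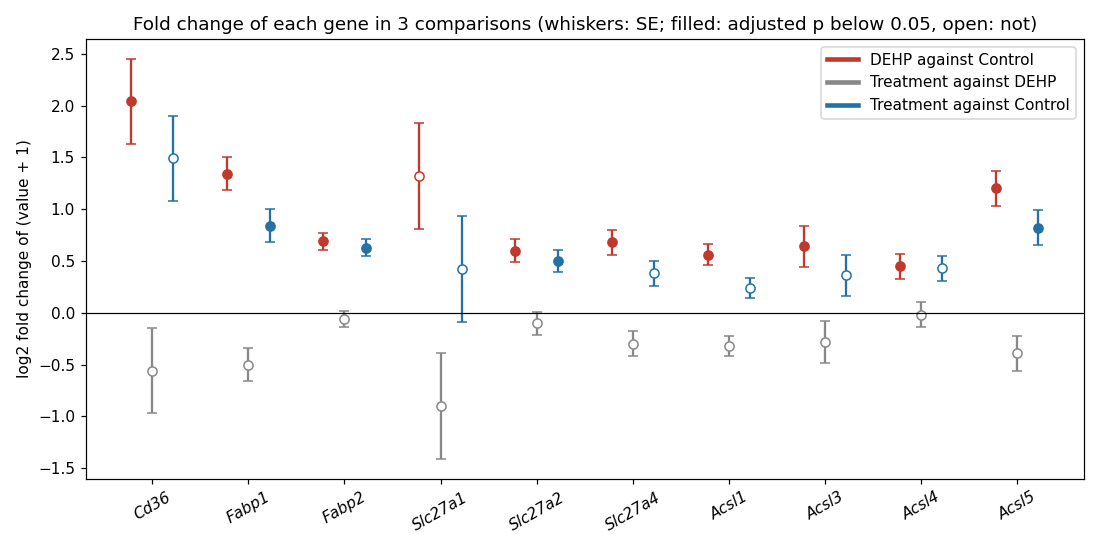
Log2 fold change of (value + 1) for each gene in the 3 comparisons, with SE as whiskers; filled points have an adjusted p below 0.05 and open points do not. In DEHP against Control 9 points are filled, in Treatment against Control 4, and in Treatment against DEHP 0. The comparisons share groups, so their points are not independent.

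The polyphenol comparison, Treatment against DEHP, gave no call for these genes with limma. At an unadjusted p below 0.05 there were 4 of the 10, namely Fabp1, Slc27a4, Acsl1 and Acsl5, against 14.7% of all genes tested. The groups did not overlap for 3 of the 10, Cd36, Slc27a1 and Acsl1, all lower in Treatment, against 10.4% of all genes. The log2 fold changes ran from -0.90 to -0.02 with a median of -0.31, beside -0.01 over all genes. The median over the 10 was -0.19 after rescaling each library to the same total without the Mup genes, where Fabp2, Slc27a2 and Acsl4 lay above 0 and the median of all genes was 0.09. With 1 library left out it ran from -0.43, without Treatment replicate 2, to -0.25, without DEHP replicate 1 or without Treatment replicate 1. Without DEHP replicate 2 it was at -0.41, and 86 of all genes were called.

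**Figure D5:**
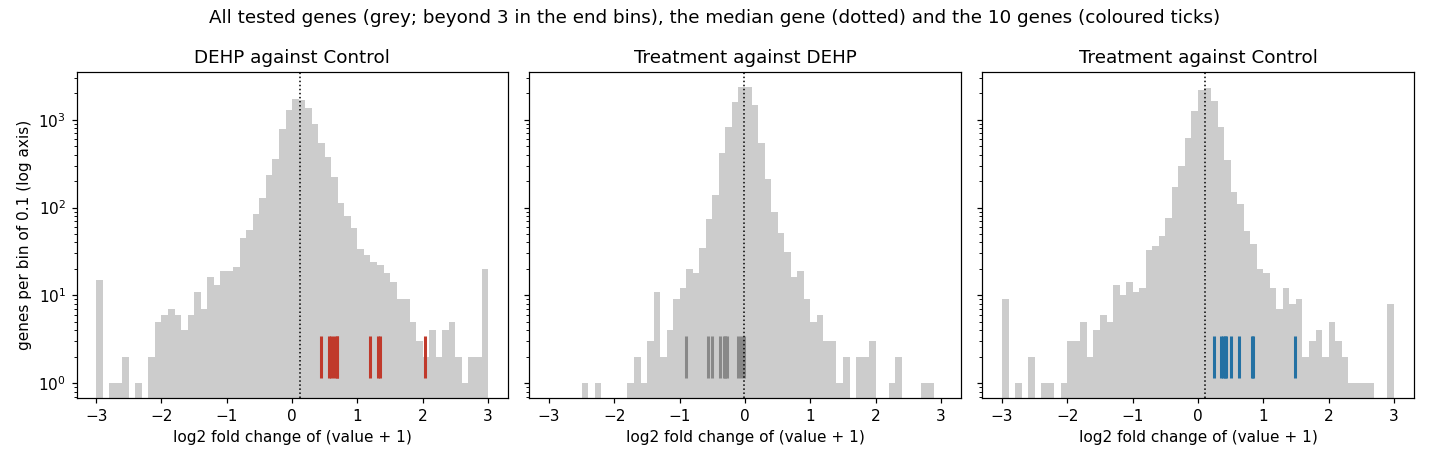
Number of tested genes (log axis) by log2 fold change of (value + 1) in each comparison; the dotted line is the median gene and coloured ticks are the 10 genes. The ticks lie between 0.45 and 2.04 in DEHP against Control, between -0.90 and -0.02 in Treatment against DEHP, and between 0.24 and 1.49 in Treatment against Control.

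DEHP replicate 1 was the highest DEHP library for 10 of the 10, also after rescaling without the Mup genes, and its Mup share of 2.37% was the lowest of the 9. Treatment replicate 2 was the highest Treatment library for 8 of the 10 on both scales. Treatment replicate 1 was the lowest for 8 as deposited and for 5 after that rescaling. The summed macrophage markers were highest in the same libraries, at 110.73 in DEHP replicate 1 and 116.37 in Treatment replicate 2, and their part in this order was not tested. Without DEHP replicate 1, 7 of the 10 genes were called in DEHP against Control, with Acsl3 and Acsl4 lost, beside 17.4% of all genes called higher.

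The genes closest to each of the 10 over the 9 libraries, by Pearson correlation of log2(value + 1) among 10378 other tested genes, are given as a description. All libraries enter, so groups that differ raise every such value. Fabp1 was closest to Hint1, a nucleotide hydrolase (r = 0.995), and to Abcg2, an efflux transporter (r = 0.992). Cd36 was closest to Rtn3, a reticulon of endoplasmic reticulum (r = 0.995), Fabp2 to Ilkap (r = 0.992) and Acsl5 to Cd1d1, which presents lipid antigens (r = 0.993). Slc27a4 was closest to Nt5e, the ectonucleotidase CD73 (r = 0.996), and Acsl1 had Slc25a20, the mitochondrial carnitine carrier, among its 3 closest (r = 0.983). For Slc27a1, Slc27a2, Acsl3 and Acsl4 the closest were Tmem234 (r = 0.98), Fam149a (r = 0.989), Frg1 (r = 0.989) and Lratd2 (r = 0.971).

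Other genes of the same steps were followed as lists, whose counts stand beside 21.6% of all genes called higher, 3.91% called lower and an all-gene median of 0.12 in DEHP against Control, and 9.68% higher, 0.760% lower and 0.11 in Treatment against Control. Of 8 tested acyl-CoA synthetases outside the ACSL genes above, 4 rose and 1 fell in DEHP against Control, with a median of 0.32. Acss3, a mitochondrial short-chain synthetase, rose by 1.29 (SE 0.10, limma adjusted p = 0.000145) and Acsf3, which activates malonate, by 0.88 (SE 0.09, adjusted p = 0.000379). Acsf2 rose by 0.64 (SE 0.11) and Acss2, the cytosolic acetate enzyme, by 1.47 (SE 0.36), and Acss2 lost its call without DEHP replicate 3 or without Control replicate 1 or 2 (adjusted p between 0.0608 and 0.0691). The one that fell was Aacs, the acetoacetate enzyme, at -1.20 (SE 0.32), named after its values were seen; its call was lost without any one of the 6 libraries. The medium-chain genes Acsm1, Acsm3 and Acsm5, also named afterwards, were at -0.12, -0.04 and 0.00 and did not pass. In Treatment against Control 3 of the 8 rose and 0 fell, and of these Acsf2 lost its call in 7 of 16 other settings.

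Of 6 tested acyl-CoA binding proteins, 3 rose and 0 fell in DEHP against Control, beside 21.6% and 3.91% of all genes, with a median of 0.36. Dbi, the acyl-CoA binding protein that takes up the product of the synthetases, was at 1845.26, 1813.37 and 1762.39 in Control, 4236.57, 3808.2 and 4028.48 in DEHP, and 2489.97, 3590.96 and 3037.6 in Treatment libraries. The 3 groups did not overlap. Dbi rose by 1.15 (SE 0.12, limma adjusted p = 0.000379) in DEHP against Control and by 0.73 (SE 0.12, adjusted p = 0.00915) in Treatment against Control, while Treatment against DEHP was at -0.42 (adjusted p = 0.167). Acbd5, a peroxisomal membrane protein, rose by 0.64 (SE 0.11) and Acbd6 by 0.45 (SE 0.07) in DEHP against Control. In Treatment against Control 4 of the 6 rose and 0 fell, beside 9.68% of all genes higher. Acbd6 kept that call in 5 and Acbd5 in 11 of 16 other settings, Acbd3 passed at an adjusted p of 0.0486, and 0 of the 6 were called against Control replicate 3 alone.

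The other FATP genes had 1 tested member, Slc27a5, the bile acid-CoA ligase FATP5 of liver. It rose by 0.29 in DEHP against Control (SE 0.09, limma adjusted p = 0.0372), a call lost in 11 of 16 other settings, among them without any one of DEHP replicates 2 and 3 and the 3 Control libraries. It was at 0.04 after quantile normalization (adjusted p = 0.794) and at 0.08 after rescaling without the Mup genes (adjusted p = 0.608). In Treatment against Control it rose by 0.36 (SE 0.09, adjusted p = 0.0341), a call lost in 12 of 16. Of 5 tested lipid-binding relatives of FABP, 1 rose and 0 fell in DEHP against Control, and 0 were called in Treatment against Control. The one that rose was Fabp7, from a low level, by 0.64 (SE 0.14, adjusted p = 0.0097). Fabp5, the epidermal form, named after its values were seen, was at 17.43, 14.82 and 18.16 in Control, 154.15, 71.03 and 60.39 in DEHP, and 23.34, 148.45 and 90.07 in Treatment libraries. All of its DEHP and Treatment libraries lay above Control, yet its log2 fold change of 2.31 did not pass (SE 0.69, adjusted p = 0.0511), and it was called in 4 of 16 other settings.

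Of 14 other genes of fatty acid and lipoprotein uptake, 2 rose and 0 fell in DEHP against Control, beside 21.6% of all genes higher, and 1 rose and 0 fell in Treatment against Control, beside 9.68%. That one was Vldlr, whose call was lost in 9 of 16 other settings. Vldlr, the very low density lipoprotein receptor, rose by 1.09 in DEHP against Control (SE 0.24, limma adjusted p = 0.0106). Got2, the aspartate aminotransferase also described as a membrane fatty acid binding protein, rose by 0.23 (SE 0.08, adjusted p = 0.0448), and lost the call without any one of the 6 libraries and was at -0.01 after quantile normalization. The median of this list was 0.04.

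Of 19 nuclear receptors and other regulators, 3 rose and 2 fell in DEHP against Control, beside 21.6% of all genes higher and 3.91% lower, with a median of -0.01. Nr0b2, the corepressor SHP, rose by 1.95 (SE 0.32, limma adjusted p = 0.004), the coactivator gene Ppargc1a by 0.92 (SE 0.20, adjusted p = 0.00976), and Nr1h3, the oxysterol receptor LXRα, by 0.26 (SE 0.07, adjusted p = 0.0231). Nr1h4, the bile acid receptor FXR, fell by 0.47 (SE 0.10, adjusted p = 0.00769), and Srebf1, named after its values were seen, fell by 0.80 (SE 0.22, adjusted p = 0.0282). The calls of Nr1h3 and Srebf1 were lost without any one of DEHP replicate 3, Control replicate 1 and Control replicate 3, and besides without DEHP replicate 1 for Nr1h3 and DEHP replicate 2 for Srebf1. Nr1h3 was at 0.02 after quantile normalization (adjusted p = 0.889), 0.04 after rescaling without the Mup genes (0.726) and 0.14 after median centring (0.207), and Srebf1 also lost its call with the replicate block (0.0603). Ppara, also named afterwards, was at 30.5, 31.04 and 34.35 in Control, 26.66, 31.92 and 20.87 in DEHP, and 36.24, 35.52 and 42.57 in Treatment libraries, with a log2 fold change of -0.28 in DEHP against Control that did not pass (SE 0.14, adjusted p = 0.161). It was called lower without DEHP replicate 2, at -0.42 (adjusted p = 0.0366), and after rescaling without the Mup genes, at -0.49 (adjusted p = 0.0399), while without DEHP replicate 3 it was at -0.13 (adjusted p = 0.476). In limma 0 members of any of these lists were called in Treatment against DEHP. Against Control replicate 3 alone, the genes called higher and lower in DEHP against Control were 1 and 0 among the FABP relatives, 0 and 0 among the FATP genes, 2 and 0 among the synthetases, 1 and 0 among the acyl-CoA binding proteins, 1 and 0 among the uptake genes, and 0 and 2 among the regulators.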

How the data were processed

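Messenger RNA of 9 liver libraries was selected on oligo(dT) beads and reverse transcribed with random hexamers, per the labels' protocols. The deposited table holds 1 signal per gene symbol and library, as the authors made it; its unit and scaling are not recorded in the labels or header, and an FPKM or TPM kind was read from the values alone. The submitters' processing notes name mm9, CASAVA 1.7 and limma without roles. Among 469 low values, 53.9% lay within 0.1 of a whole multiple of the gene's lowest nonzero value. The share to be met without steps was not worked out, so this cannot decide whether the values hold count steps. Depth is unknown. Groups came from titles. Genes at 1 or more in at least 3 libraries were tested as log2(value + 1), which understates changes of low genes. The test was 1 limma 3.58.1 model (R 4.3.3, trend, robust) of all 9 libraries. It was checked on simulated data with independent noise and no shift of whole libraries. That check therefore does not cover shifts such as that of the Mup share. All 10 genes passed the filter. Named list genes were up to 4 per list, called in DEHP against Control with the smallest adjusted p. Genes and lists were chosen with earlier results of these data known. Alternatives were scalings, pseudocount 0.1, no filter, other fits and leaving out libraries. Those for lists were chosen after seeing the data. Promoters came from RefSeq (GRCm38.p6). Of the uptake list, 1 gene is not reported here and is left out of its counts.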

Additional observations from a re-analysis of the deposited data

How the results depend on the processing

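In DEHP against Control all 10 genes kept a log2 fold change above 0 in each of 16 other settings. The number called was 5 after quantile normalization, 7 with libraries rescaled without Mup genes, and 7 to 9 with a library left out. Over all genes 8.88%, 7.74% and 14.2% to 19.8% were called higher in these settings. In that rescaling Slc27a2 was at 0.39 and Acsl1 at 0.34, both still called. The calls of Acsl3, at 0.45 (limma adjusted p = 0.121), and Acsl4, at 0.25 (adjusted p = 0.17), were lost. Over all genes tested 2654 were called, 1755 after quantile normalization, 757 with Control replicate 3 as the lone control, and 1703 to 2376 with a library left out. The split was 2248 higher and 406 lower, 922 and 833 after quantile normalization, 1271 and 736 after median centring, and 804 and 996 with libraries rescaled without Mup genes. In Treatment against DEHP 0 of the 10 were called in every setting. Over all genes 0 were called, 5 after rescaling to equal totals, 38 after rescaling without the Mup genes, 1 with no filter, 1 with only the 6 libraries compared, and 0 to 86 with a library left out. Fabp2 was there at 0.02 after quantile normalization, 0.02 with equal totals and 0.07 without the Mup genes, Slc27a2 at 0.03 without the Mup genes, and Acsl4 at 0.06 with equal totals, 0.10 without the Mup genes, and from -0.15 to 0.06 with a library left out (0.06 and 0.03 without Treatment replicate 1 or 3, 0.03 without DEHP replicate 1). In Treatment against Control 2 of the 10 were called after quantile normalization or median centring, 0 with the lone control, and 2 to 6 with a library left out. Over all genes 1085 were called there, with 282 after quantile normalization, 2019 with equal totals, 276 after median centring, 363 without the Mup genes, 582 with no filter, 10 with the lone control, and 254 to 1115 with a library left out. The split of 1006 higher and 79 lower became 172 and 110 after quantile normalization, 180 and 96 after median centring and 298 and 65 without the Mup genes. Slc27a1 ran there from -0.07 (without Control replicate 3) to 0.88 with a library left out, and Got2 at -0.01 in DEHP against Control after quantile normalization. The cause of these shifts was not tested.

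Whether replicate numbers pair the samples is not in the labels. Deviations from the group means of same-numbered libraries had correlations between -0.263 and 0.17. The best match had the same number in 3 of 18 cases. With so few libraries in a group, these values cannot exclude a pairing. With the replicate block 8 of the 10 genes were called in DEHP against Control, beside 18.7% of all genes called higher. In Treatment against DEHP 0 of the 10 were called there (0% of all genes). In Treatment against Control 3 of the 10 were called, beside 5.11% of all genes called higher and 578 called in either direction. With no counts in the table, precision at low values such as those of Acsl3 could not be given.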
